A study of Mus musculus with 24 samples.

Results

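Water and sodium handling in the kidney was followed through 9 genes: the water channels Aqp1, Aqp2, Aqp3, Aqp4 and Aqp6, the vasopressin receptor Avpr2, and Scnn1a, Scnn1b and Scnn1g, which encode the 3 subunits of the epithelial sodium channel. They were picked by symbol from 23955 genes in the deposited counts, and all 9 were among the 15080 genes with enough counts to be tested. RNA came from whole mouse kidney in 24 libraries, 4 in each of 6 groups. The wild type, labelled PLD4+/+ (WT), and the mutant, labelled PLD4-/- (KO), were each sampled as controls (day 0), and after unilateral ureteral obstruction, an operation that ties off the ureter of one kidney, at day 5 or day 10. Apart from this genotype and the obstruction, no allele, strain, age or sex is given in the sources used here, so what the groups otherwise share is not known. The labels do not say whether replicates are separate animals, so p-values measure only the spread between these libraries, which may be technical.

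As background, water leaves the tubule through aquaporins, membrane pores that let water follow salt. In the principal cells of the collecting duct, vasopressin binds Avpr2 and raises cAMP, which moves Aqp2 into the apical membrane and raises Aqp2 transcription, while Aqp3 and Aqp4 let the water out on the basolateral side. The sodium channel sits in the apical membrane of the same cells and is controlled by aldosterone. Aqp1 serves the proximal tubule and the thin descending limb, and Aqp6 is a channel of intercalated cells.

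The libraries held between 9800888 and 22542866 counts, and the smallest count of any of the 9 genes in any library was 17. Counts are given below as CPM, counts scaled to a common library size after TMM scaling, which makes libraries comparable for 1 gene. Pld4 itself was measured at 5.1 to 8.25 CPM in the WT day 0 libraries and at 6.7 to 12.6 CPM in those labelled KO, so at day 0 its RNA was not lower under the KO label. Pld4 at day 5 was 46.6 to 50.9 CPM in WT against 13.4 to 32.6 CPM in KO, and at day 10 54.6 to 117 CPM against 24.3 to 50.3 CPM, without overlap. KO is therefore used below only as the label of a library. Replicates 2 and 3 of WT day 10 stood apart: S100a8, a neutrophil gene, was at 991 and 2140 CPM in them and at no more than 3.83 CPM in any other library. The summed level of 7 leukocyte markers was 1940 and 3500 CPM in these libraries, 213 and 214 CPM in the other two WT day 10 libraries and 240 to 383 CPM in KO day 10. At day 0 this sum was 15.6 to 21.9 CPM in WT and 72.7 to 92.7 CPM in KO. The tests of the 9 genes that rest on WT day 10 are given with and without replicates 2 and 3.

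Levels of different genes can be compared per length, in the deposited FPKM (fragments scaled to transcript length and library size). On this scale Aqp1 was the most abundant of the 9 in WT day 0 kidney, at 254 to 335 FPKM. Aqp2 followed at 44.2 to 129 FPKM and overlapped Aqp3 at 40.6 to 63.2 FPKM. Scnn1a lay below both at 26.9 to 36.5 FPKM. The next neighbours could not be ordered beyond their spread: Aqp6 was at 12.4 to 22.4, Scnn1b at 13.2 to 17.9, Scnn1g at 12.1 to 16.9 and Avpr2 at 8.81 to 15.1 FPKM. Aqp4 was lowest at 2.31 to 7.81 FPKM and did not overlap Avpr2. The group means of the KO day 0 libraries stood in the same order, from 336 FPKM for Aqp1 to 7.69 FPKM for Aqp4. By KO day 10 the order had changed below Aqp1 and Aqp2: the means of Aqp6, Aqp3, Scnn1b and Scnn1a lay between 19.6 and 22.2 FPKM.

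**Figure D1:**
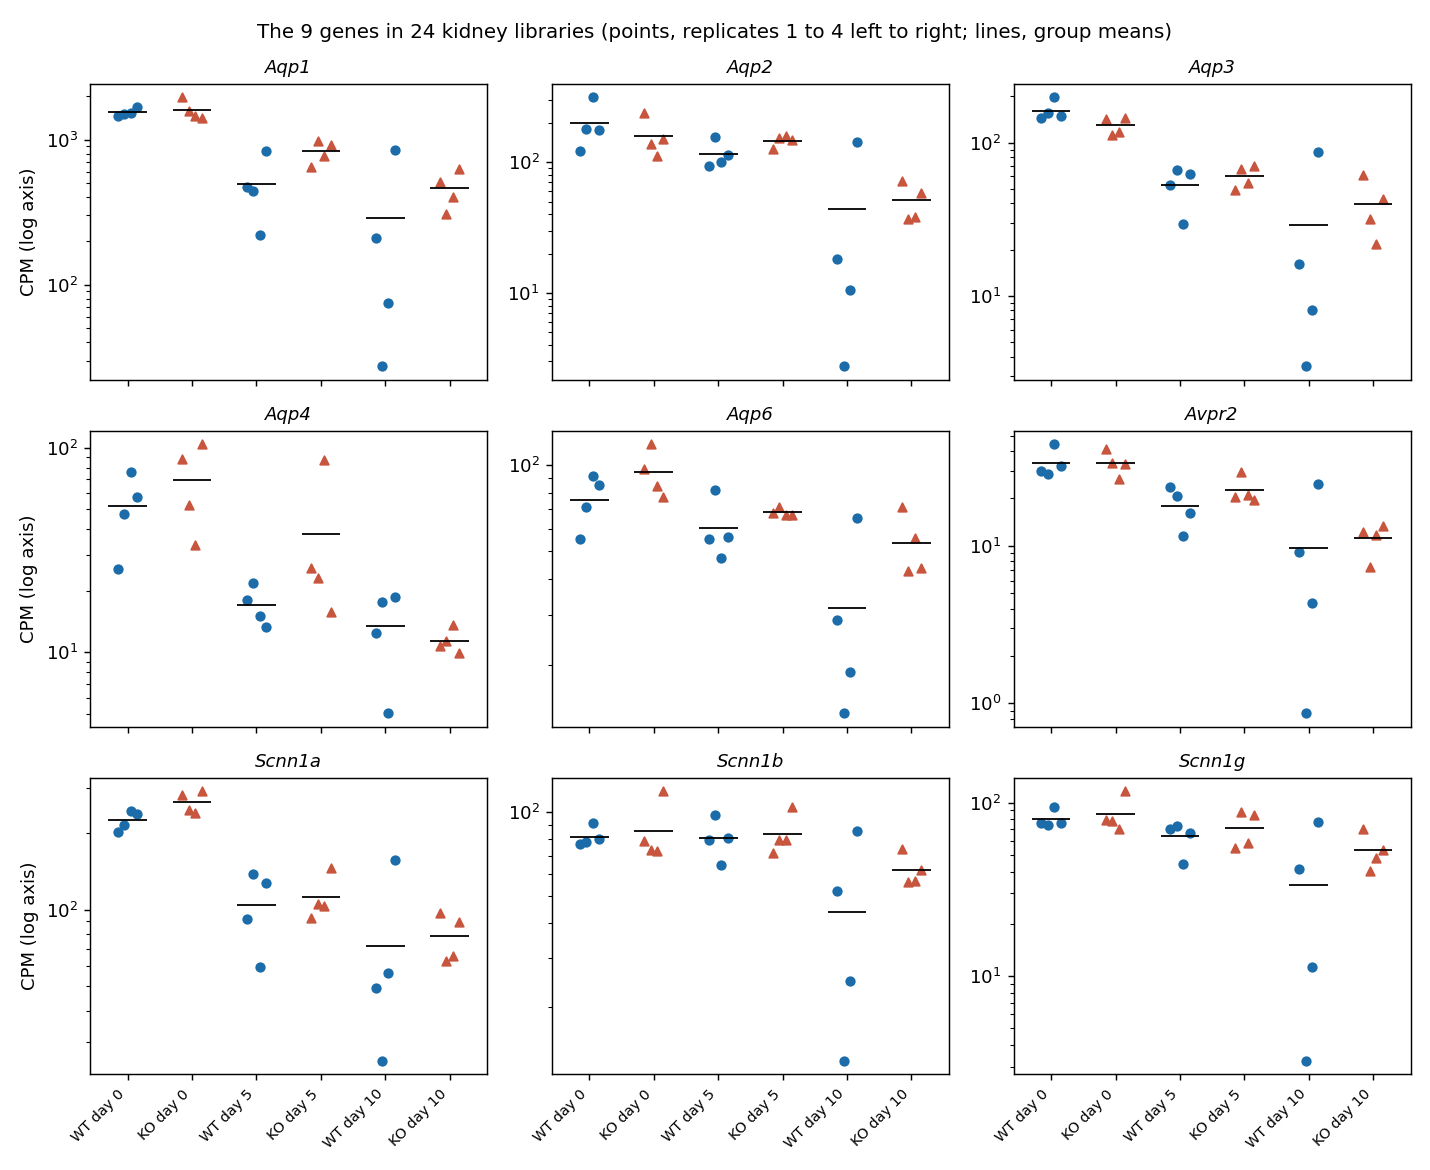
Level of each of the 9 genes in every library, in CPM on a log axis, with WT as circles, KO as triangles and the group mean as a line. The WT day 10 points spread most, with Aqp2 between 2.74 and 144 CPM, whereas Scnn1b in the other groups stays between 56.2 and 119 CPM.

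Within WT kidneys, 4 of the 9 genes were lower at day 5 than at day 0 and none was higher, past an adjusted p of 0.05 in edgeR's quasi-likelihood test with Benjamini-Hochberg adjustment over all genes tested. In the same comparison 25.6% of all genes tested were called lower and 56.6% were called in either direction. The 4 were Aqp1, Aqp3, Aqp4 and Scnn1a. At day 10 all 9 were lower, where 30.3% of all genes were called lower and 68.1% in either direction. In KO kidneys 1 of the 9, Scnn1a, was called lower at day 5, beside 17% of all genes called lower and 39.5% in either direction. At KO day 10, 7 of the 9 were called lower, beside 26% of all genes called lower and 54.3% in either direction. The 2 that did not pass at KO day 10 were Scnn1b and Scnn1g. The median log2 fold change of the 9 was -0.91 at WT day 5, -1.79 at WT day 10, -0.58 at KO day 5 and -1.64 at KO day 10, while the median of all genes lay between 0.01 and 0.12. In bulk tissue, fewer cells of a type and less RNA per cell cannot be told apart.

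These counts depended on the WT day 10 libraries that stand apart and on the scale. Without replicates 2 and 3 of WT day 10, the genes called lower were 5 at WT day 5, 6 at WT day 10, 3 at KO day 5 and 9 at KO day 10, beside 26.1%, 24.1%, 20.7% and 27.7% of all genes. Aqp6, Scnn1b and Scnn1g were the 3 that no longer passed at WT day 10. The TMM factors were 0.764 to 0.87 at day 0 and 0.976 to 1.22 in obstruction, so fold changes against day 0 are relative to a shift between scales. On the log2(FPKM + 1) scale the median gene moved up by 0.52 to 0.56 against the TMM scale in the 4 comparisons with day 0. The calls there, by limma, were 0, 8, 0 and 2 of the 9 genes. With total counts and no TMM factors they were 1, 7, 1 and 3. The shares of all genes called on these scales are not given here, so these counts are not read as particular to the 9. Directions of the 9 genes reported below hold on the 3 scales unless a sentence says otherwise. Genes of the lists below were followed on the TMM scale only, and their directions on the other scales were not tested.

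**Figure D2:**
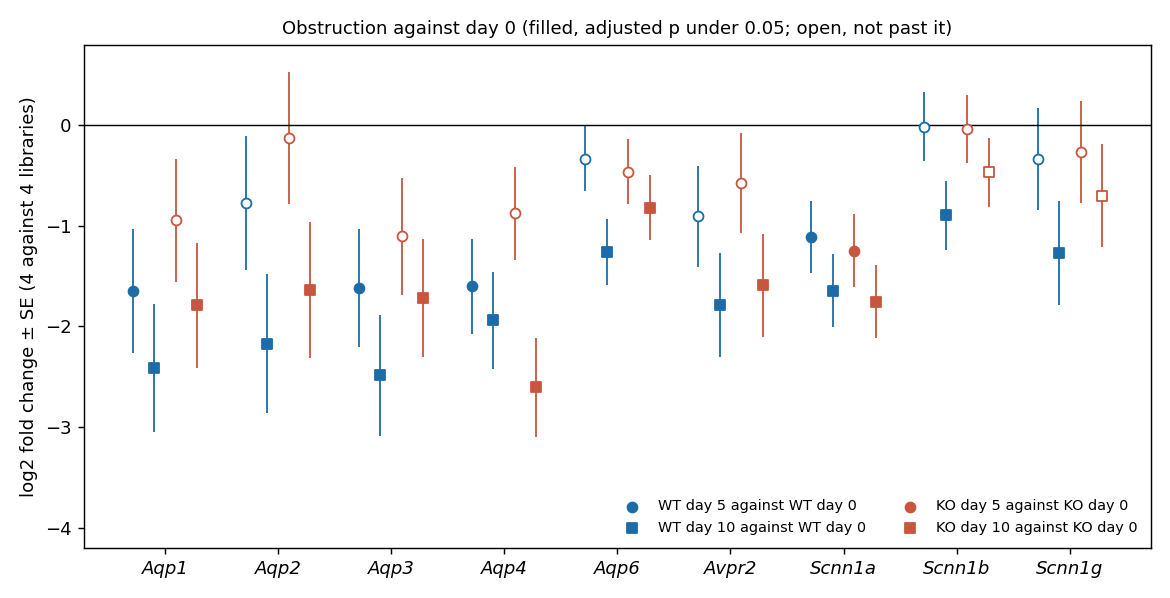
Log2 fold change of each gene in obstructed against day 0 kidneys, with its standard error, for WT (blue) and KO (red) at day 5 (circles) and day 10 (squares). Filled symbols passed an adjusted p of 0.05: all 9 at WT day 10, 7 at KO day 10, 4 at WT day 5 and 1 at KO day 5.

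Aqp1, the constitutive water pore of the proximal tubule and thin descending limb, fell in WT at both times and in KO at day 10. It was at 1460, 1500, 1530 and 1680 CPM in the WT day 0 libraries and at 1960, 1570, 1450 and 1410 CPM in KO day 0. At day 5 it was at 474, 439, 220 and 834 CPM in WT and 644, 978, 772 and 918 CPM in KO. At day 10 the values were 209, 27.4, 74.8 and 845 CPM in WT and 508, 307, 404 and 626 CPM in KO. No obstructed library reached its genotype's day 0 range, and WT day 10 was split, with replicate 4 high and replicates 2 and 3 lowest. The log2 fold change was -1.65 ± 0.62 (SE) at WT day 5 and -2.41 ± 0.64 at WT day 10, with adjusted p of 0.0283 and 0.00217, 4 libraries per group. The WT day 10 change was -1.52 ± 0.46 without replicates 2 and 3, with an adjusted p of 0.00777. At KO day 10 it was -1.79 ± 0.62 with an adjusted p of 0.0193. At KO day 5 it was -0.95 ± 0.61 and did not pass, with an adjusted p of 0.222. Markers of the proximal tubule, the main site of Aqp1, were lower beside it. Called lower were 10 of 10 at WT day 10, beside 30.3% of all genes, and 9 of 10 at KO day 10, beside 26%. Without replicates 2 and 3, 9 of 10 of these markers were lower at WT day 10, beside 24.1% of all genes. Their summed level was 19000 to 23300 CPM at WT day 0 and 243 to 6890 CPM at WT day 10. Their part in the Aqp1 result was not tested.

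Aqp2, the water pore that vasopressin moves to the apical membrane of principal cells, showed no call at day 5 and was lower at day 10. In WT day 0 it was at 122, 181, 315 and 175 CPM, and in KO day 0 at 239, 137, 112 and 151 CPM. At day 5 it was at 93.3, 157, 99.9 and 113 CPM in WT and at 126, 154, 158 and 147 CPM in KO. Both day 5 groups overlapped their controls, and the KO group was among the tightest of all. At day 10 the WT libraries gave 18.3, 2.74, 10.5 and 144 CPM, and the KO libraries 71.7, 36.6, 38.1 and 58.5 CPM. WT replicate 4 lay inside the day 0 range while the other three were below every other library, and all 4 KO libraries lay below the KO day 0 and day 5 ranges. The log2 fold change was -0.77 ± 0.66 at WT day 5 with an adjusted p of 0.326 and -2.17 ± 0.69 at WT day 10 with an adjusted p of 0.0085. In KO it was -0.13 ± 0.66 at day 5, positive at 0.50 on the FPKM scale and 0.20 with total counts, with an adjusted p of 0.894. At KO day 10 it was -1.64 ± 0.68 with an adjusted p of 0.0459, and it did not pass on the FPKM scale or with total counts, where it was -1.20. Without replicates 2 and 3 the WT day 10 change was -1.26 ± 0.53 with an adjusted p of 0.0493.

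The 250 bases before the start of Aqp2 are shown because this promoter is a known target of the cAMP pathway downstream of Avpr2. They come from RefSeq on GRCm38.p6, whereas the authors' build was mm9. Letters in capitals mark matches to 3 short motifs searched on both strands: the cAMP response element half-site TGACG, the GATA factor core AGATAA and the steroid receptor half-site TGTTCT, all 3 here on the opposite strand and so printed as their reverse complements.
Aqp2 promoter, chr15:99578806-99579055, plus strand: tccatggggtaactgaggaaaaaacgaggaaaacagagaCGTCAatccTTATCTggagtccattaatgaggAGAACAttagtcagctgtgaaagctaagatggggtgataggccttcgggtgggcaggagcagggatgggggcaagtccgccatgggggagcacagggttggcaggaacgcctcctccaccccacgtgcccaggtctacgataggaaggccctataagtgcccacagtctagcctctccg
The TGACG match lies 211 to 207 bases before the start, AGATAA 202 to 197 and TGTTCT 179 to 174, without overlap. Of 32851 RefSeq windows of the same length, 17.8% hold TGACG, 9.99% AGATAA and 16.1% TGTTCT on either strand, so each match is common. The whole cAMP response element TGACGTCA, in 1.55% of windows, and the NFAT core TGGAAA, in 18.6%, were matched in none of the 7 windows found among the 9 genes. A match of letters is a description of the window and not a measured binding site.

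Aqp3, the glycerol and water pore of the basolateral membrane, fell in WT at both times and in KO at day 10. Its levels were 144, 156, 198 and 148 CPM in WT day 0 and 143, 112, 118 and 145 CPM in KO day 0. By day 5 the levels were 52.8, 65.9, 29.4 and 62.2 CPM in WT and 49, 66.7, 54.6 and 70.5 CPM in KO. By day 10 the levels were 16.1, 3.45, 8.1 and 87.3 CPM in WT and 61.6, 31.6, 21.7 and 43 CPM in KO. Every obstructed library lay below every day 0 library of its genotype. The log2 fold changes were -1.62 ± 0.59 at WT day 5, -2.49 ± 0.60 at WT day 10 and -1.72 ± 0.59 at KO day 10, with adjusted p of 0.0235, 0.0011 and 0.0181. With replicates 2 and 3 left out the WT day 10 value was -1.62 ± 0.47 with an adjusted p of 0.00697. At KO day 5 the value was -1.11 ± 0.58 with an adjusted p of 0.133. Aqp3 is next to Aqp7 on chromosome 4, and Aqp7, a glycerol channel of the proximal tubule, was lower at WT day 10 at -1.66 ± 0.41 with an adjusted p of 0.00126, and at -0.95 ± 0.19 with an adjusted p of 0.000289 without those replicates.

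Aqp4, the other basolateral water pore of principal cells, differed from the rest in how its libraries varied. It was at 25.5, 47.4, 76.3 and 57.6 CPM in WT day 0 and at 88.2, 52.2, 33.6 and 104 CPM in KO day 0. The day 5 libraries gave 18.1, 21.8, 15.1 and 13.3 CPM in WT and 25.9, 23.1, 86.6 and 15.7 CPM in KO. The day 10 libraries gave 12.4, 17.6, 5.02 and 18.7 CPM in WT and 10.7, 11.3, 13.6 and 9.96 CPM in KO. Both WT obstruction groups and KO day 10 lay below day 0 without overlap, and KO day 5 overlapped because replicate 3 was at a day 0 level. The log2 fold change was -1.60 ± 0.47 at WT day 5, -1.94 ± 0.48 at WT day 10 and -2.61 ± 0.49 at KO day 10, with adjusted p of 0.00712, 0.00124 and 0.000188. The WT day 10 value was -1.71 ± 0.57 without replicates 2 and 3, with an adjusted p of 0.0161. At KO day 5 it was -0.88 ± 0.46 with an adjusted p of 0.135, and without replicate 3 it was -1.67 with an adjusted p of 0.00508. WT day 10 replicate 2, in which most of the genes were at their lowest, was at 17.6 CPM for Aqp4, inside the range of the other libraries of its group. An antisense RNA is annotated over Aqp4, and since the use of strand in counting is not given in the sources used here, reads of the pair cannot be told apart.

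Aqp6, an intracellular channel of acid-secreting intercalated cells, was lower at day 10 in both genotypes. At day 0 it was at 55.3, 71.3, 91.1 and 85.2 CPM in WT and 97.1, 118, 84.3 and 77.3 CPM in KO. At day 5 its WT range was 47.4 to 82 CPM, within reach of day 0, and its KO range was 66.8 to 71.4 CPM, just under the lowest KO day 0 library. At day 10 the WT values were 28.7, 13.6, 18.9 and 65.2 CPM and the KO values 71.2, 42.6, 55.6 and 43.7 CPM. Its log2 fold change was -1.26 ± 0.33 at WT day 10 with an adjusted p of 0.00189 and -0.82 ± 0.32 at KO day 10 with an adjusted p of 0.0363. Without replicates 2 and 3 the WT value was -0.66 ± 0.28 with an adjusted p of 0.0502, and on the FPKM scale the KO value was -0.16 and did not pass. At day 5 it was -0.33 ± 0.32 in WT and -0.46 ± 0.32 in KO, neither past the test, and on the FPKM scale the signs turned to 0.31 and 0.15. Other genes of intercalated cells gave more calls: 6 of 14 were lower at WT day 5 and 13 of 14 at WT day 10, KO day 5 and KO day 10. The share of all genes called lower was 25.6% at WT day 5 and 30.3% at WT day 10. It was 17% at KO day 5 and 26% at KO day 10. Without WT day 10 replicates 2 and 3, 10 of the 14 were lower at WT day 5, beside 26.1% of all genes. At WT day 10 it was also 10 of the 14, beside 24.1%. In that fit 14 of the 14 intercalated cell genes were lower at KO day 5, beside 20.7%, and 13 at KO day 10, beside 27.7%. Their summed level was 1360 to 1550 CPM at WT day 0, 1360 to 2080 CPM at KO day 0 and 607 to 801 CPM at KO day 5. Among them Rhbg, an ammonia transporter, was at -2.77 ± 0.46, and Slc4a1, the basolateral chloride and bicarbonate exchanger, at -4.01 ± 0.67, both at WT day 10. Slc4a1 is also in the list of red cell markers, and the part of red cells in its value was not tested.

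Avpr2, the receptor through which vasopressin acts on principal cells, was lower at day 10 in both genotypes. Its levels were 30.1, 28.7, 44.2 and 32.3 CPM in WT day 0 and 41.1, 33.5, 26.6 and 33.3 CPM in KO day 0. At day 5 they were 23.7, 20.7, 11.6 and 16.1 CPM in WT and 20.3, 29.3, 20.9 and 19.6 CPM in KO. At day 10 they were 9.15, 0.863, 4.35 and 24.7 CPM in WT and 12.2, 7.32, 11.8 and 13.3 CPM in KO. The WT libraries lay below day 0 at both times, and the KO libraries lay below day 0 at day 10 but not at day 5. Its log2 fold change was -1.79 ± 0.51 at WT day 10 and -1.59 ± 0.51 at KO day 10, with adjusted p of 0.00426 and 0.0124. With replicates 2 and 3 left out it was -0.97 ± 0.33 at WT day 10, with an adjusted p of 0.0165. It was -0.91 ± 0.50 at WT day 5 and -0.58 ± 0.50 at KO day 5, with adjusted p of 0.126 and 0.371, and the KO value turned to 0.06 on the FPKM scale. WT day 5 passed without WT day 10 replicates 2 and 3, at -0.87 with an adjusted p of 0.00724. L1cam and Arhgap4 are annotated over parts of Avpr2 on the opposite strand, so some of its counts may be theirs.

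The window before Avpr2 is shown because it is the other of the 7 that holds a match, here in capitals. It holds TGTTCT in 2 places on the strand of the gene, 59 to 54 and 50 to 45 bases before the start.
Avpr2 promoter, chrX:73891852-73892101, plus strand: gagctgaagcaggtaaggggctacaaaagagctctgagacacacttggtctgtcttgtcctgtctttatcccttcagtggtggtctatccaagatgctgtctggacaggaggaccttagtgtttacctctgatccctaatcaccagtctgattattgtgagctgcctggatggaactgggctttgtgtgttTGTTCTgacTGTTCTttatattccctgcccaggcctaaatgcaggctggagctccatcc
The windows of Aqp1, Aqp3, Aqp6, Scnn1b and Scnn1g held none of the motifs searched, which says only that these letters are not in them.

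Scnn1a, the pore subunit that the sodium channel needs to reach the membrane, was called lower in all 4 comparisons with day 0. In the fit of all libraries on the TMM scale it was the 1 gene of the 9 called so. More of the 9 passed at KO day 5 when WT day 10 replicates 2 and 3 were left out. It was at 202, 215, 244 and 237 CPM in WT day 0 and 283, 247, 240 and 292 CPM in KO day 0. By day 5 it had values of 91.8, 138, 59.3 and 127 CPM in WT and 92.8, 105, 103 and 146 CPM in KO. By day 10 it had values of 48.9, 25.4, 56.1 and 156 CPM in WT and 96.6, 62.6, 65.9 and 89.6 CPM in KO. No obstructed library overlapped its day 0 group. The log2 fold changes were -1.11 ± 0.36 at WT day 5, -1.65 ± 0.36 at WT day 10, -1.25 ± 0.36 at KO day 5 and -1.75 ± 0.36 at KO day 10. Their adjusted p were 0.0124, 0.000458, 0.00953 and 0.000469. The WT day 10 change without replicates 2 and 3 was -1.11 ± 0.35, with an adjusted p of 0.0105. On the FPKM scale the day 5 values were -0.51 and -0.65 and did not pass.

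Scnn1b, the beta subunit, stayed near its day 0 level at day 5 on the TMM scale. It was at 77.2, 78.2, 91.3 and 80.4 CPM in WT day 0 and 79.1, 73.5, 72.7 and 119 CPM in KO day 0. Its day 5 values were 79.8, 98.2, 64.8 and 80.8 CPM in WT and 71.5, 79.5, 79.5 and 105 CPM in KO. Its day 10 values were 52.1, 12.9, 24.9 and 86.1 CPM in WT and 74.2, 56.2, 56.7 and 62.1 CPM in KO. All 4 obstruction groups overlapped their controls, by 1 library each at day 10. The log2 fold change at day 5 was -0.02 ± 0.34 in WT and -0.04 ± 0.34 in KO, with signs that turned to 0.58 and 0.56 on the FPKM scale. At day 10 it was -0.89 ± 0.34 in WT, with an adjusted p of 0.0261, and -0.47 ± 0.34 in KO, with an adjusted p of 0.253 and a value of 0.17 on the FPKM scale. Without replicates 2 and 3 the WT day 10 change was -0.22 ± 0.22 with an adjusted p of 0.405. Cog7 is annotated over part of Scnn1b on the opposite strand, so the same limit on strand applies.

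Scnn1g, the gamma subunit, resembled Scnn1b. It was at 74.4 to 94.8 CPM in WT day 0, 70.6 to 116 CPM in KO day 0, 44 to 73.4 CPM in WT day 5 and 54.9 to 88.6 CPM in KO day 5. At day 10 it was at 41.5, 3.25, 11.3 and 77.4 CPM in WT and 70.8, 40.4, 48 and 53.2 CPM in KO. WT day 5 lay just below day 0 without overlap, and the other 3 obstruction groups overlapped it. The log2 fold change was -1.27 ± 0.52 at WT day 10 with an adjusted p of 0.0347, and without replicates 2 and 3 it was -0.41 ± 0.27 with an adjusted p of 0.208. It was -0.34 ± 0.51 at WT day 5, -0.27 ± 0.51 at KO day 5 and -0.70 ± 0.51 at KO day 10, none past the test, and the day 5 signs turned to 0.27 and 0.30 on the FPKM scale.

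Scnn1b and Scnn1g are neighbours on chromosome 7, and their levels had the highest correlation of any of the pairs among the 9 genes, with a Pearson r of 0.98 over 24 libraries. After each library had its group mean subtracted r was 0.97, and 0.88 without WT day 10 replicates 2 and 3, where Aqp3 and Scnn1a had the highest r of 0.93. These points share groups and library scaling, so the correlations are descriptions. The windows before their starts are shown because these 2 genes moved together. Both are on the plus strand of the same chromosome.
Scnn1g promoter, chr7:121734229-121734478, plus strand: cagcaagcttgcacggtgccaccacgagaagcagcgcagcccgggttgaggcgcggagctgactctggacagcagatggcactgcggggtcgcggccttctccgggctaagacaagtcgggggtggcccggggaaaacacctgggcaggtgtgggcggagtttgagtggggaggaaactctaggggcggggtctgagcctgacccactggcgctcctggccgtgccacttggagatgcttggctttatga
Scnn1b promoter, chr7:121864788-121865037, plus strand: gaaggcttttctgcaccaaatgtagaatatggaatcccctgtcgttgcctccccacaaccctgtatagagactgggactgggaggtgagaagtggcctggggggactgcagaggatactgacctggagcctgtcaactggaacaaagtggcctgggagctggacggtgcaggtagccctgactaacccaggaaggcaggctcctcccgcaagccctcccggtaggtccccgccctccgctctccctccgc
Neither holds capitals, since none of the motifs searched was found, and the windows are 65.2% and 60.8% G and C beside a median of 52.4% over all windows.

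The balance between subunits moved within libraries, a comparison that scaling between libraries cannot change. The ratio of Scnn1a to Scnn1b in FPKM was 2.03, 2.11, 2.04 and 2.26 in WT day 0 and 2.75, 2.62, 2.57 and 1.88 in KO day 0. The day 5 ratios were 0.896, 1.08, 0.71 and 1.19 in WT and 1.01, 1.02, 0.987 and 1.05 in KO. The day 10 ratios were 0.744, 1.52, 1.75 and 1.4 in WT and 1.01, 0.874, 0.898 and 1.12 in KO. Every obstructed library was below every day 0 library of its genotype. The difference in log2 ratio was -1.15 ± 0.17 (SE) at WT day 5, -0.71 ± 0.27 at WT day 10, -1.26 ± 0.13 at KO day 5 and -1.32 ± 0.15 at KO day 10. Each of these 4 had a two-sided exact permutation p of 0.0286, the smallest that 4 against 4 libraries allow. Their adjusted p was 0.0735 over 36 such tests, so none passed after adjustment. The WT day 10 difference was -1.05 without replicates 2 and 3. These ratios were chosen after values had been seen.

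The ratio of Scnn1a to Scnn1g had a mean of 2.35 (SD 0.2, n = 4) in WT day 0 and ran from 2.09 to 2.95 in KO day 0. It was 1.08 to 1.59 in WT day 5, 0.994 to 1.48 in KO day 5 and 1.15 to 1.43 in KO day 10, each without overlap with day 0. In WT day 10 it was 0.978, 6.68, 4.29 and 1.69, with the libraries that stand apart above day 0 and the other two below it. The difference at WT day 10 was 0.16 ± 0.63 in log2 with all libraries and -0.86 without replicates 2 and 3. The ratio of Scnn1b to Scnn1g was 1.06 to 1.15 in WT day 0 and 1.01 to 1.11 in KO day 0. It was 1.2 to 1.58 at WT day 5, 0.979 to 1.5 at KO day 5, 1.21 to 4.4 at WT day 10 and 1.14 to 1.49 at KO day 10, higher without overlap in all but KO day 5. Its WT day 10 difference from day 0 was 0.18 in log2 without replicates 2 and 3.

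Aqp2 and Aqp3 parted at day 5 and came together again at day 10. Their FPKM ratio was 1.09, 1.48, 2.03 and 1.5 in WT day 0 and 2.12, 1.58, 1.21 and 1.34 in KO day 0. At day 5 it was 2.27, 3.02, 4.24 and 2.34 in WT and 3.29, 2.93, 3.71 and 2.65 in KO. At day 10 it was 1.44, 1.03, 1.66 and 2.12 in WT and 1.52, 1.51, 2.31 and 1.75 in KO. Day 5 lay above day 0 and above day 10 without overlap in both genotypes, whereas day 10 overlapped day 0. The log2 difference of day 5 from day 0 was 0.95 ± 0.28 in WT and 1.03 ± 0.21 in KO, and of day 10 from day 5 -0.92 ± 0.30 and -0.84 ± 0.18. Each of these 4 had an exact permutation p of 0.0286 and an adjusted p of 0.0735. The WT difference of day 10 from day 5 was -0.71 without replicates 2 and 3 of WT day 10. Among 12 comparisons of a ratio between genotypes none was without overlap, and the smallest exact permutation p was 0.143.

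**Figure D3:**
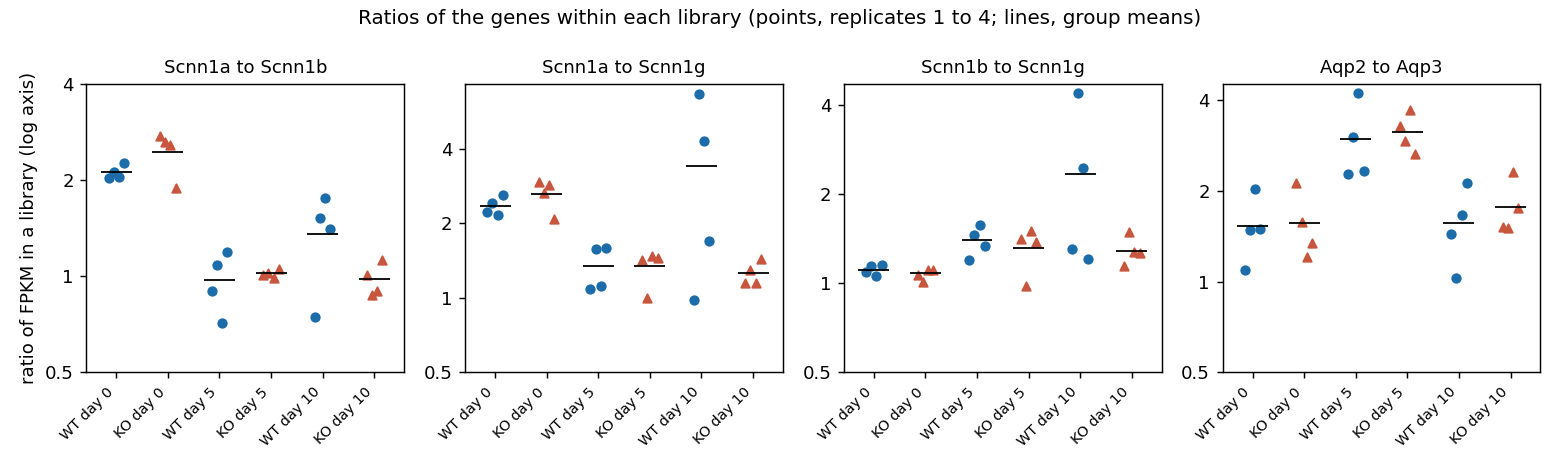
FPKM of 1 gene divided by FPKM of another in the same library, on a log axis, by group, with group means as lines. Scnn1a to Scnn1b is 1.88 to 2.75 at day 0 and no more than 1.75 in any obstructed library, and Aqp2 to Aqp3 is at 2.27 or more at day 5 in every library.

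From day 5 to day 10, none of the 9 genes passed the test in either genotype. In WT the log2 fold changes ran from -0.34 ± 0.47 for Aqp4 to -1.40 ± 0.67 for Aqp2, in a comparison that called 10.8% of all genes. Aqp6 and Scnn1b had an unadjusted p below 0.05, and their adjusted p were 0.0689 and 0.101. With the replicate number as a block, Scnn1b passed at -1.02 with an adjusted p of 0.0456. Without WT day 10 replicate 4, whose levels were near those of day 5, 8 of the 9 genes passed as lower, all but Aqp4, beside 29.7% of all genes. Without replicates 2 and 3 none passed, and neither did any of the 15294 genes tested there. In KO the values ran from -0.36 ± 0.32 for Aqp6 to -1.73 ± 0.48 for Aqp4, beside 0.0199% of all genes called. Aqp2 and Aqp4 had an unadjusted p below 0.05 with adjusted p of 0.446 and 0.269, and DESeq2 called Aqp4. The KO day 10 libraries lay below the day 5 libraries without overlap for Aqp1, Aqp2, Aqp4 and Avpr2, none of which passed in edgeR. The share of all genes separated in this way was not counted, so this is a description of the libraries only.

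Between libraries labelled KO and WT, none of the 9 genes passed the test at any time. At day 0, where 4.18% of all genes were called, the log2 differences ran from -0.32 ± 0.57 for Aqp3 to 0.43 ± 0.46 for Aqp4, with no unadjusted p below 0.05. At day 5, with 0.146% of all genes called, they ran from 0.05 ± 0.34 for Scnn1b to 1.15 ± 0.47 for Aqp4. Aqp4 had an unadjusted p of 0.0227 and an adjusted p of 0.304, and without KO day 5 replicate 3 its difference was 0.32. At day 10, with 1.41% of all genes called, they ran from -0.24 ± 0.47 for Aqp4, which was 0.00 on the FPKM scale, to 0.75 ± 0.32 for Aqp6, whose unadjusted p was 0.0298 and adjusted p 0.283. In all 9 genes and at all 3 times the libraries of both labels overlapped. Limma on FPKM called none of the 9 between the labels either. DESeq2 called none of the 7 to which it gave a p-value, and it gave none to Aqp1 and Aqp3. At day 0, 4 of 7 leukocyte markers were higher under the KO label, 6 of 7 when WT day 10 replicates 2 and 3 were left out of the fit, and their part in the values of the 9 genes was not tested.

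The day 10 difference between the labels turned on which WT libraries were kept. With all 4 it was 0.67 ± 0.61 for Aqp1, 0.22 ± 0.66 for Aqp2, 0.46 ± 0.58 for Aqp3 and 0.67 ± 0.51 for Scnn1g. Without WT replicate 4, 7 of the 9 passed as higher under the KO label, beside 13.5% of all genes: Aqp1 at 2.14, Aqp2 at 2.27, Aqp3 at 2.08, Aqp6 at 1.37, Scnn1a at 0.85, Scnn1b at 1.04 and Scnn1g at 1.49. With replicates 2 and 3 left out, 7 of the 9 changed sign, none passed, and Aqp1 was at -0.20, Aqp2 at -0.67, Aqp3 at -0.40 and Scnn1g at -0.17. The leukocyte markers moved with this split, as the sums above show, and their part in it was not tested.

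The test of whether obstruction acted differently under the WT and KO labels called none of the 9 genes at day 5, beside 0.564% of all genes, or at day 10, beside 3.25%. None had an unadjusted p below 0.05 at either time. The day 5 differences in response, KO minus WT, ran from -0.14 ± 0.50 for Scnn1a to 0.72 ± 0.65 for Aqp4, and the day 10 ones from -0.67 ± 0.66 for Aqp4 to 0.77 ± 0.81 for Aqp3. Without WT day 10 replicate 4, 4 of the 9 passed at day 10, beside 11.9% of all genes. None passed at day 10 without replicates 2 and 3, and 7 of the 9 changed sign, with Aqp3 at -0.09 and Aqp4 at -0.89.

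Genes around these 9 were followed in lists chosen by function or by cell type. Their counts are to be read beside the shares of all genes called. In either direction these were 56.6% at WT day 5, 68.1% at WT day 10, 39.5% at KO day 5 and 54.3% at KO day 10. Called lower, in the same order, were 25.6%, 30.3%, 17% and 26%. Without WT day 10 replicates 2 and 3, the WT day 10 shares were 56.4% in either direction and 24.1% lower. The 7 other aquaporins included Mip, listed at 0 in every library, Aqp12 with 1 count in all, and Aqp5, next to Aqp2 and Aqp6 on chromosome 15, with at most 18 counts in a library. Aqp11, an intracellular channel of the proximal tubule, was lower in all 4 comparisons with day 0, at -2.04, -3.18, -1.66 and -2.36 in the order WT day 5, WT day 10, KO day 5 and KO day 10. Aqp8 was also called lower in all 4, from 11 to 24 counts at WT day 0 to 0 to 5 at WT day 10. Aqp9, a glycerol and water pore of liver and leukocytes, went the other way, with a call as higher in WT at both times. It had 1, 1, 0 and 2 counts in WT day 0, 13, 11, 14 and 12 in WT day 5 and 40, 161, 153 and 9 in WT day 10, with its highest values in the libraries with the most S100a8. The KO libraries had 1 to 4 counts at day 0 and 2 to 11 at day 5 and day 10. Between the labels Aqp9 passed as lower under KO at day 10, at -3.17 ± 0.64 with an adjusted p of 0.0164. That call was lost without WT day 10 replicates 2 and 3, at -1.14 ± 0.52, whereas at WT day 10 Aqp9 was still called higher than at day 0. With all libraries its difference in response did not pass, with an adjusted p of 0.489 at day 5 and 0.0861 at day 10.

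Vasopressin signalling and Aqp2 trafficking gave calls in both directions, as did all genes tested. Of 20 genes tested, 4 were higher and 6 lower at WT day 5, 7 and 5 at WT day 10, 3 and 3 at KO day 5 and 2 and 5 at KO day 10. Their median lay between -0.21 and 0.01. Without WT day 10 replicates 2 and 3, the WT day 10 count was 4 higher and 3 lower. Adcy3, an adenylyl cyclase that makes cAMP, was at 2.87 ± 0.22 and Prkaca, a catalytic subunit of protein kinase A, at -0.60 ± 0.11 at WT day 10. Avp, the hormone itself, and Avpr1b were at 0 counts throughout. Signals known to oppose vasopressin also split, with 5 of 10 higher and 3 lower at WT day 10 and 3 and 4 at KO day 10. Edn1, the endothelin ligand that inhibits sodium and water uptake in the duct, was at 5.21 ± 0.42 in log2 at WT day 10 and 3.57 at KO day 10. Ptger4, a prostaglandin E receptor coupled to cAMP, was at 2.55 ± 0.19 and 1.93, and Ptger3, the receptor that lowers cAMP, at -1.73 ± 0.26 and -1.75, all 4 of these past the test. Ptger4 is counted in this list although, like Avpr2, it raises cAMP, so its rise is not read as a rise of an opposing signal. At WT day 10, 3 of the 10 were higher and 2 lower without replicates 2 and 3.

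Of 21 genes of aldosterone action and sodium channel control, 4 were higher and 13 lower at WT day 10 and 3 and 11 at KO day 10, against 2 and 7 at WT day 5 and 3 and 7 at KO day 5. Without WT day 10 replicates 2 and 3 the WT day 10 count was 2 higher and 8 lower. Wnk4, a kinase that regulates salt transport, was lower in all 4 comparisons, at -1.74 ± 0.30 at WT day 10. So was Fxyd2, a small regulator of ion transport, at -2.47 ± 0.47. Tmprss4, a protease that can activate the sodium channel, was higher at WT day 10, at 3.27 ± 0.59, or 1.42 ± 0.46 without those replicates, and in KO at day 5 and day 10, at 2.35 and 2.33. Of 7 genes tested for the osmotic response and urea transport, 4 were lower and 1 higher at WT day 10, among them Slc5a3, the inositol transporter, at -1.59 ± 0.39, and Nfat5, the osmotic transcription factor, at 0.91 ± 0.28. The count was 3 lower and 1 higher without replicates 2 and 3, and Slc5a3 was at -0.96 ± 0.37.

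Markers of principal cells outside the 9 genes did not move one way. Of 12, 5 were higher and 3 lower at WT day 5, 3 and 6 at WT day 10, 5 and 1 at KO day 5 and 4 and 5 at KO day 10. Without WT day 10 replicates 2 and 3, WT day 10 had 4 higher and 4 lower. Cldn4, a tight junction gene, and the keratins Krt18 and Krt8 were higher in all 4 comparisons, at 2.58 ± 0.18, 2.69 ± 0.32 and 1.00 ± 0.18 at WT day 10, and Tmem45b was lower there at -1.32 ± 0.19. The summed level of the 12 was 2760 to 3290 CPM at WT day 0, 887 to 2340 CPM at WT day 10 and 1740 to 2250 CPM at KO day 10. Of 10 transcription factors of the collecting duct, Elf3 and Grhl2 were higher in all 4 comparisons, Elf3 at 2.07 ± 0.27 and Grhl2 at 0.53 ± 0.20 at WT day 10. Hoxd8 was lower at both day 10 times, at -0.72 ± 0.23 in WT, a call lost without replicates 2 and 3 at -0.22 ± 0.18. Thin limb markers, the other site of Aqp1, had 4 of 6 lower and 1 higher at WT day 10 and 3 of 6 lower at KO day 10. The thin limb count at WT day 10 was 3 lower and none higher without replicates 2 and 3. Thick limb and distal tubule markers had 6 of 8 lower and 1 higher in all 4 comparisons.

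**Figure D4:**
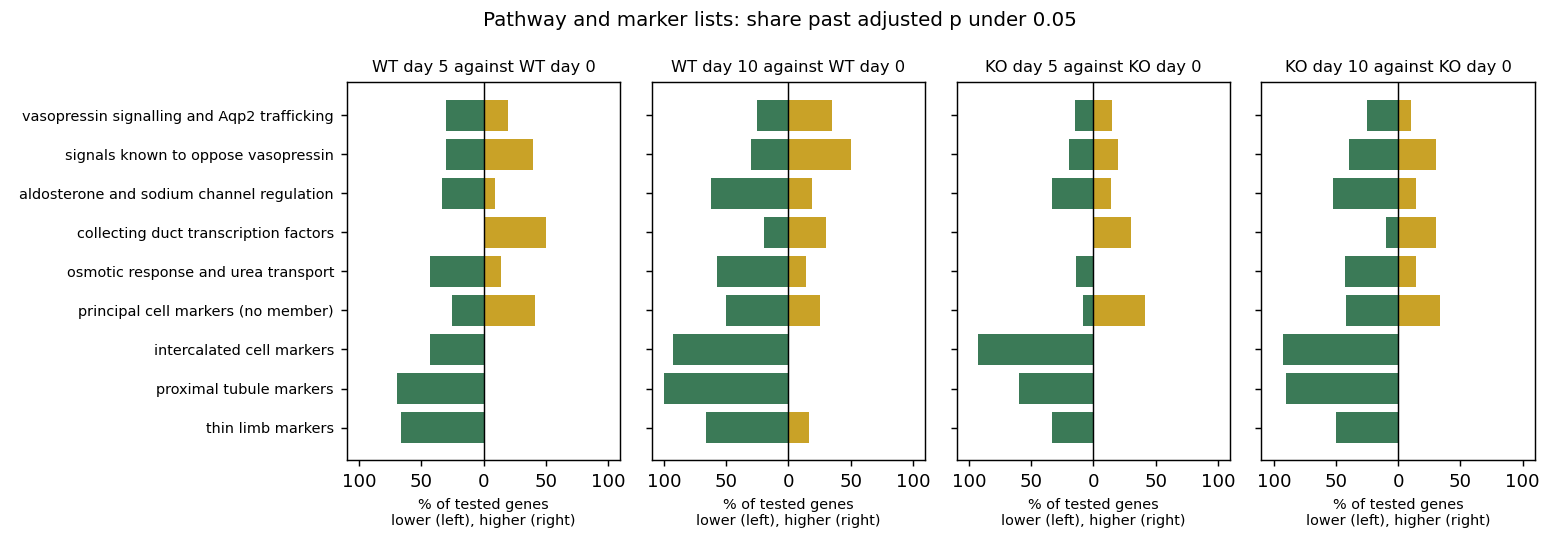
Share of the tested genes of each list past an adjusted p of 0.05 in the 4 comparisons with day 0, lower to the left in green and higher to the right in yellow, in percent. Intercalated and proximal markers extend to the left alone, with 13 of 14 and 10 of 10 lower at WT day 10, while principal cell markers extend both ways.

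Markers of cells outside the tubule were checked in the same libraries. At WT day 10, 7 of 7 leukocyte markers, 6 of 8 endothelial and 3 of 6 podocyte markers were higher, and at KO day 10 4 of 7, 1 of 8 and 2 of 6. The WT day 10 counts were 7 of 7, 4 of 8 and 3 of 6 without replicates 2 and 3. In that fit the KO day 10 counts were 7 of 7, 2 of 8 and 2 of 6 higher. There 3 endothelial markers and 1 podocyte marker were lower at KO day 10. The leukocyte count thus differed between the labels at day 10 only with these replicates kept. Each count is against the genotype's own day 0, where 4 of 7 leukocyte markers were already higher under the KO label. Of 8 urothelial markers, 1 was higher and 1 lower at WT day 10, and 3 were higher at KO day 10. Of 7 red cell markers the 4 hemoglobin genes were listed at 0 in every library, and of the 2 tested 1 was lower at WT day 10 and both at KO day 10. The marker lower at WT day 10 was Slc4a1, which is also in the intercalated cell list, so it is no separate observation. The 9 genes and their list neighbours were measured in mixtures whose makeup moved with obstruction, and the part of that makeup was not tested.

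Each of the 9 genes was also matched to the genes outside the 9 whose log2 CPM followed it most closely over the 24 libraries, as a description. Aqp1 was nearest to Cyp2j11 and Ugt3a2, each with a Pearson r of 0.99, and Aqp3 to Fam151a, Sgk2 and Sord, each with 0.98. Aqp2 was nearest to Gstm5 with 0.95, Aqp6 to Nqo1 with 0.94 and Avpr2 to Ranbp3l with 0.97. Scnn1a was nearest to Kcnj10, a basolateral potassium channel, with 0.98. Scnn1b and Scnn1g were both nearest to Hsd11b2, the enzyme that keeps glucocorticoid from the mineralocorticoid receptor, with 0.97 each. Aqp4 had the loosest match, Slc19a2 with 0.86. When WT day 10 replicates 2 and 3 were left out, the r for these pairs was 0.98 and 0.97 for Aqp1, 0.95 to 0.96 for Aqp3, 0.85 for Aqp2, 0.85 for Aqp6 and 0.91 for Avpr2. It was 0.97 for Scnn1a, 0.93 for Scnn1b, 0.88 for Scnn1g and 0.84 for Aqp4, so the pairs of Aqp2, Aqp6 and Scnn1g were looser without them. With group means subtracted, the r of Aqp4 with the other 8 genes was 0.07 to 0.27, while the r among those 8 was 0.79 to 0.97. Without WT day 10 replicates 2 and 3 these were 0.04 to 0.41 and 0.48 to 0.93, so Aqp4 stood apart from the rest in both.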

How the data were processed

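Raw counts per gene and FPKM per gene were deposited by the authors for the 24 libraries. Per the labels' protocols, TRIzol RNA went into TruSeq stranded mRNA libraries, and per the submitters' processing notes bcl2fastq 2.16, STAR 2.5, Cufflinks and mm9 were used. The counter, the annotation and the use of strand are not given in the sources used here. No count row lacked a gene name. Counts were fitted with edgeR 4.0.16 (R 4.3.3, TMM, filterByExpr with a minimum count of 10 and total of 15, robust quasi-likelihood fit of 6 group means, 18 residual degrees of freedom), with Benjamini-Hochberg adjustment over 15080 genes at 0.05. The fit was checked on simulated data.

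The 9 genes and the lists were chosen with earlier results of these data known. Alternatives were DESeq2 1.42.0, limma 3.58.1 on log2(FPKM + 1) or log2(FPKM + 0.1), other filters, total counts, each library left out, and a replicate block. Same-numbered libraries deviated together in all 4 pairs (correlation over 0.1) in WT day 10 against day 5, at 0.105 to 0.361. They also did so in KO against WT at day 10, at 0.141 to 0.306. In the other 7 comparisons fewer pairs were over 0.1. There were 2 such pairs in KO against WT at day 5, where the range was -0.0896 to 0.591, and 2 in WT day 5 against day 0. KO day 10 against day 5 had 1, and the remaining comparisons had none. Apart from the 9, genes named are the 3 with the highest correlation to each and up to 4 per list with the lowest adjusted p at WT day 10. Promoter windows were matched by symbol to RefSeq, for 7 of 9 genes. One gene that this rule named is not reported here.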

Additional observations from a re-analysis of the deposited data

Results flagged for a closer look

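Single libraries lay far from the other 3 of their group, by Dixon's gap test, in 7 of 78 groups of 4 values. Chance flags about 1 in 20 such groups. In WT day 10, replicate 4 was high for Aqp2 at 144 CPM, where the next library was at 18.3 CPM, and for Aqp3 at 87.3 CPM, where the next was at 16.1 CPM. In KO day 5, Aqp4 reached 86.6 CPM in replicate 3 against 25.9 CPM in the next library, and Avpr2 reached 29.3 CPM in replicate 2 against 20.9 CPM. In the same KO day 5 replicate 2, the Scnn1a to Scnn1g ratio in FPKM was low at 0.994, with 1.42 next. In KO day 0, Scnn1b was at 119 CPM in replicate 4 against 79.1 CPM. In WT day 0, Scnn1g was at 94.8 CPM in replicate 3 against 76.5 CPM.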

How the results depend on the processing

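No sign change of any of the 9 genes was past the threshold in either fit. Leaving out 1 library moved the genes called to between 1 and 4 at WT day 5, 7 and 9 at WT day 10, 1 and 2 at KO day 5, 3 and 7 at KO day 10, 0 and 8 for WT day 10 against day 5, 0 and 7 for KO against WT at day 10, and 0 and 4 for the day 10 response. Among the libraries concerned were WT day 5 replicates 1 (2 called) and 3 (1 called) and KO day 5 replicate 3 (2 called, Aqp4 added). Others were KO day 10 replicates 2 (3 called) and 3 (4 called) and, for the comparisons other than those with day 0, WT day 10 replicate 4. The library left out for the 7 at WT day 10 is not named here. With DESeq2 the count of called genes was 2 at WT day 5 and 1 each for WT and KO day 10 against day 5, of 7, since Aqp1 and Aqp3 had no p-value from it; of the same 7, edgeR called 2, 0 and 0. With limma on log2(FPKM + 1), log2(FPKM + 0.1) or no filter it was 0 at WT day 5, 0 at KO day 5 and 2 at KO day 10, and for WT day 10 against day 5 it was 3, 3 and 2. With total counts it was 1 at WT day 5 and 3 at KO day 10. In fits of only the groups compared it was 5 at WT day 10, 5 at KO day 5 and 1 for KO day 10 against day 5, and without WT day 10 replicates 2 and 3 together it was 3 at KO day 5. With the replicate block it was 1 for WT day 10 against day 5 and unchanged elsewhere, while the genes called of all tested in KO against WT at day 10 went from 1.41% to 0.126%. Except where a share is printed, these counts stand without the share of all genes called under the same setting. They are therefore not read as changes particular to the 9 genes. The cause of these changes was not tested.

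Signs of the printed values turned as follows, in log2. Apart from these, at most 1 of the 9 genes turned in KO against WT at day 0 and in each response under any 1 alternative that kept all libraries, at most 3 turned there or in KO against WT at day 5 with 1 library left out, and 7 turned in the day 10 response without WT day 10 replicates 2 and 3. With limma on FPKM + 1, filtered or not, values at WT day 5 were 0.31 for Aqp6, 0.58 for Scnn1b and 0.27 for Scnn1g, at KO day 5 0.50 for Aqp2, 0.15 for Aqp6, 0.06 for Avpr2, 0.56 for Scnn1b and 0.30 for Scnn1g, at KO day 10 0.17 for Scnn1b, and in KO against WT at day 10 0.00 for Aqp4. With FPKM + 0.1 they were 0.33, 0.61, 0.29, 0.51, 0.16, 0.07, 0.58, 0.31, 0.18 and 0.06 for the same genes and comparisons. With total counts they were 0.13 for Aqp6, 0.45 for Scnn1b and 0.12 for Scnn1g at WT day 5 and 0.20 for Aqp2, 0.28 for Scnn1b and 0.05 for Scnn1g at KO day 5. Scnn1b at WT day 5 was 0.03 with the CPM filter, 0.00 with only the groups compared and 0.02 without WT day 10 replicates 2 and 3. Without those replicates Aqp1 in WT day 10 against day 5 was 0.09, the KO against WT values at day 10 were -0.20 for Aqp1, -0.67 for Aqp2, -0.40 for Aqp3, -0.61 for Avpr2, -0.39 for Scnn1a, -0.16 for Scnn1b and -0.17 for Scnn1g, Aqp3 in the day 10 response was -0.09, and the Scnn1a to Scnn1g ratio at WT day 10 was -0.86. Leaving out 1 library turned signs within these ranges: Scnn1b -0.08 to 0.11 at WT day 5, -0.15 to 0.16 at KO day 5 and -0.09 to 0.14 in KO against WT at day 5, Aqp2 -0.27 to 0.13 at KO day 5, in KO against WT at day 10 -0.18 to 2.27 for Aqp2, -0.20 to 1.20 for Avpr2 and -0.15 to 0.85 for Scnn1a, in the day 5 response -0.36 to 0.00 for Scnn1a and -0.11 to 0.99 for Aqp4, and at WT day 10 -0.28 to 0.64 for the Scnn1a to Scnn1g ratio and -0.14 to 0.21 for Aqp2 to Aqp3. The ratios and the total-count scale were chosen after seeing the data, and WT day 10 replicates 2 and 3 were left out because earlier results of these data set them apart.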
